A study of Mus musculus with 12 samples.

Results

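The RUNX transcription factors, their shared partner CBFB and the ETO family of corepressors were examined at the RNA level in cultured mouse hematopoietic stem cells (HSCs). The 7 genes were taken by name from a table of 40481 genes: Runx1, Runx2, Runx3, Cbfb, Runx1t1 (ETO), Cbfa2t2 (MTGR1) and Cbfa2t3 (ETO2 or MTG16). Each name matched a single gene identifier, and all 7 genes passed the filter on low values. The study sorted HSCs from wild-type (WT) mice and from mice with an inducible ETV6-RUNX1 fusion, written iE/R in the labels, a fusion of transcription factor genes found in childhood B-cell leukemia. The fetal liver cells were at stage E14.5 and the bone marrow cells from animals 8 weeks old. The cells of all 4 groups, WT included, were given doxycycline, the inducing drug, at 1 µg/mL over 3 days of ex vivo culture in expansion conditions. No group without the drug was analysed here, so an effect of the drug that WT and ETV6-RUNX1 cells share cannot be seen. Each of the 4 groups had 3 libraries (WT fetal liver, ETV6-RUNX1 fetal liver, WT bone marrow, ETV6-RUNX1 bone marrow). The sources used here do not give the alleles that drive the fusion, the species of its sequence, or how many animals, and of which sex, went into a library. Nothing states that replicates came from separate animals or cultures, so the p-values measure only the spread between these libraries.

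RUNX proteins bind DNA through the runt domain, and CBFB, which does not touch DNA itself, binds that domain and strengthens the contact. RUNX1 is required for the emergence of HSCs and for megakaryocyte and lymphoid development, RUNX2 is best known as the master factor of bone formation, and RUNX3 acts in T cells, natural killer cells and sensory neurons. ETO proteins do not bind DNA on their own but bring histone deacetylases and corepressor complexes to DNA-bound factors, and ETO2 does so in TAL1, LMO2 and GATA complexes of stem, erythroid and megakaryocyte cells. RUNX1 and ETO genes are both broken in leukemia, where RUNX1 is joined to ETO in one fusion and to ETV6 in another.

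The start regions of the RUNX genes share a short sequence, shown here because it is the motif of the RUNX proteins themselves in tandem. RUNX genes have a distal and a proximal promoter, and RefSeq start windows on GRCm38.p6, from 250 bases before to 50 bases after a start, were at hand for 6 of the 7 genes (9 windows), Runx1t1 being the exception. The run ACCACAGAACCACA, which holds the RUNX motif TGTGGT as its reverse complement (ACCACA) with a second copy after a 2-base gap, was present in 1 window each of Runx1, Runx2 and Runx3. Each line below gives 30 bases, 5′ to 3′ on the gene's own strand, with that run in capitals.
Runx1: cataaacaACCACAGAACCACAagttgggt
Runx2: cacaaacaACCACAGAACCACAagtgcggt
Runx3: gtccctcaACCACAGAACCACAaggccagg
The Runx1 site lies at chr16:92826025-92826054 on the minus strand, with the first capital at base 29 of the transcript from the upstream start. The Runx2 site lies at chr17:44814583-44814612 on the minus strand, with the first capital at base 24 of the transcript. The Runx3 site lies at chr4:135120503-135120532 on the plus strand, 134 bases before the upstream start, and is the only one of these sites that precedes the start. Of 32851 windows of the same length in the table, 4 (0.0122%) held the run on either strand, and 7 (0.0213%) held ACCACANNACCACA, in which the 2-base gap is free. The window outside the RUNX genes belongs to Gm16225, a gene model on the opposite strand whose window shares 232 bases with that of Runx3, so that it holds the same site. The run was read from the Runx3 window before it was counted, so its presence in the windows of Runx3 and Gm16225 was fixed beforehand. A single TGTGGT on either strand was present in 16.8% of all windows, and the related TGCGGT in 6.45%. Neither motif was found in the downstream windows of Runx1 and Runx3 or in the windows of Cbfb and Cbfa2t2, and the upstream window of Cbfa2t3 held 1 TGCGGT. Because Runx3 was the gene among these whose level differed most between the groups, the 250 bases before its upstream start (chr4:135120395-135120644, plus strand) are given in full, with ACCACA in capitals.
Runx3 upstream: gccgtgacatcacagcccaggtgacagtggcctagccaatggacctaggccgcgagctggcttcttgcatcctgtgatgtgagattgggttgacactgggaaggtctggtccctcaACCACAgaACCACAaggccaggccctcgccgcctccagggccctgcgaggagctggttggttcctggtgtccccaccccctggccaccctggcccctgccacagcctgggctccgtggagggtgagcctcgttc
A match describes the letters in a window and does not show that a RUNX protein bound there.

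The libraries held 32.3 to 64.5 M reads, and values are given as CPM, reads of a gene scaled to a common library total. Values of 3 reads or fewer were treated as no different from 0, and this floor was 0.0465 to 0.0928 CPM. Floors cover counting error only, because the processing notes name no use of molecular identifiers. None of 12 genes used to gate or mark HSCs was at or under that floor in all libraries of any group. Their summed level was 1889 to 2288 CPM in WT and 4172 to 4300.0 CPM in ETV6-RUNX1 fetal liver, but the genes did not move together. Ly6a, the gene of the stem cell antigen Sca-1, was at 14.53 to 21.4 CPM in WT and 629 to 1107 CPM in ETV6-RUNX1 fetal liver. Cd48 (179 to 188 against 18.7 to 23.8 CPM) and Flt3 (15.04 to 30.4 against 4.71 to 8.42 CPM), which mark cells outside the HSC gate, were lower in ETV6-RUNX1 fetal liver. In bone marrow Ly6a was at 38.4 to 179 CPM in WT and 282 to 629 CPM in ETV6-RUNX1, and Cd48 at 103 to 215 and 35.2 to 44.5 CPM. Flt3 overlapped there (2.59 to 7.56 CPM in WT and 1.05 to 3.67 CPM in ETV6-RUNX1). The 6 megakaryocyte markers summed to 3049 to 4501 CPM in WT and 7035 to 7647 CPM in ETV6-RUNX1 fetal liver, so that transcripts of a neighbouring lineage were abundant. Pf4 made up most of that sum (means of 2472 and 4816 CPM), and Gp9 went the other way without overlap (268 to 457 CPM in WT and 169 to 262 CPM in ETV6-RUNX1). The 7 erythroid markers, mostly Hbb-bt, summed to 729 to 1010 CPM in WT and 1426 to 2207 CPM in ETV6-RUNX1 fetal liver, while Klf1 among them was lower (0.497 to 0.954 and 0.0300 to 0.315 CPM). The 5 monocyte and macrophage markers, mostly Cd68, summed to 42.1 to 50.4 CPM in WT, with Adgre1 at or under the floor, and to 126 to 148 CPM in ETV6-RUNX1 fetal liver. The 4 T and natural killer cell markers summed to at most 0.130 CPM in any library, and 3 or 4 of them were at or under the floor in every group. WT bone marrow replicate 1 stood apart from its group. Its level of Kit, the stem cell factor receptor, was 129 CPM against 552 and 403 CPM in replicates 2 and 3. Its level of the granulocyte marker S100a8 was 49.4 CPM against 12.0 and 0.125 CPM there. For the 7 genes, results whose call or sign changed without this library are given with and without it. ETV6-RUNX1 bone marrow replicate 2 stood apart in megakaryocyte markers, with Pf4 at 1217 CPM against 224 and 149 CPM in replicates 1 and 3 and Ppbp at 184 CPM against 11.6 and 3.71 CPM. The share of reads in processed pseudogenes, a measure that varied within groups, was 1.65% to 2.37% in WT and 1.23% to 1.91% in ETV6-RUNX1 fetal liver, and 1.6% to 2.23% in WT and 2.13% to 2.55% in ETV6-RUNX1 bone marrow. Summed over 4 Y-linked genes, the level was 64.6 to 119 CPM in WT and 198 to 220 CPM in ETV6-RUNX1 fetal liver. In bone marrow it was 229 to 288 CPM in WT and 268 to 389 CPM in ETV6-RUNX1. The Y-linked level thus differed without overlap between the sources in each genotype and between the genotypes in fetal liver. Its part in the results below was not tested.

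The comparison of ETV6-RUNX1 with WT cells from fetal liver asked how the fusion changes fetal HSCs. Among the 7 genes Runx1, Runx1t1 and Cbfa2t3 rose, Runx3 fell, and Runx2, Cbfb and Cbfa2t2 did not pass the test. A gene is called here when limma's p, adjusted over 14271 genes by the Benjamini-Hochberg method, is under 0.05. By this rule 4 of the 7 genes were called, 3 higher and 1 lower, where 43.1% of all genes tested were called, 24.8% higher and 18.3% lower. With so large a background the count itself does not set the family apart, and the sizes of the single changes follow. Fold changes are differences of log2(CPM + 1) with their standard error (SE), a scale that understates the change of genes with low levels.

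Runx1 (ENSMUSG00000022952, chromosome 16, 92601466 to 92826149, minus strand, GRCm38) is the gene joined to ETV6 in the fusion and was examined first. Its level was 136, 110.4 and 117 CPM in the WT fetal liver libraries, replicates 1 to 3, and 218, 218 and 244 CPM in the ETV6-RUNX1 fetal liver libraries. No ETV6-RUNX1 library was as low as the highest WT library, with means of 227 ± 15.0 and 121 ± 13.0 CPM (SD, n = 3). The rise of Runx1 was 0.90 ± 0.14 SE (95% confidence interval 0.61 to 1.20, limma adjusted p 0.000153) and was called under all 22 alternatives. The table gives 1 value per gene, so reads from the fusion and reads from the resident Runx1 gene cannot be told apart, and whether reads of the fusion were counted under Runx1 is not given in the sources used here. Exact permutation of the libraries could not go below p = 0.1 with 3 against 3, and 0.1 was the p of this and every other gene among the 7 whose groups did not overlap.

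Runx3 (ENSMUSG00000070691, chromosome 4, 135120652 to 135177990, plus strand), which activates cytotoxic programmes and silences Cd4 in T cells, went the other way. WT fetal liver libraries held 29.5, 19.4 and 23.7 CPM of Runx3, against 4.64, 2.30 and 1.20 CPM in ETV6-RUNX1 fetal liver. The groups were far apart, and the lowest ETV6-RUNX1 value still rested on 40 reads, above the floor. Mean Runx3 levels were 24.2 ± 5.03 and 2.71 ± 1.76 CPM (SD, n = 3), a ratio of 0.112 of ETV6-RUNX1 to WT. The log2 fold change of Runx3 was -2.85 ± 0.30 SE (95% confidence interval -3.50 to -2.20, limma adjusted p 6.39e-06), and it stayed between -3.31 and -2.53, with a call, under all 22 alternatives. In RNA from many cells, fewer cells that express a gene and less RNA per cell cannot be told apart. Markers of granulocytes moved in the same direction, with a summed level of 218 to 293 CPM in WT and 32.4 to 47.8 CPM in ETV6-RUNX1 fetal liver over 6 genes, of which S100a8, S100a9 and Ly6g were at or under the floor in both groups and Elane in ETV6-RUNX1, and their part in the change of Runx3 was not tested. The markers of T and natural killer cells, where RUNX3 is best known, were at or near 0 in WT fetal liver as well. The part of such cells in the change of Runx3 was not tested.

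Runx2 (ENSMUSG00000039153, chromosome 17, 44495987 to 44814797, minus strand), the bone factor, was at 24.7, 19.5 and 21.9 CPM in WT and 18.1, 27.7 and 26.4 CPM in ETV6-RUNX1 fetal liver. These values overlapped, and the difference of 0.10 ± 0.19 SE did not pass (95% confidence interval -0.30 to 0.51, limma adjusted p 0.684). Cbfb (ENSMUSG00000031885, chromosome 8, 105170674 to 105217989, plus strand), the common partner, was at 40.6, 51.7 and 41.7 CPM in WT and 43.9, 37.3 and 48.4 CPM in ETV6-RUNX1 fetal liver. The Cbfb libraries of both genotypes overlapped too, and the interval of the difference, -0.41 to 0.31, included 0 (-0.05 ± 0.17 SE, limma adjusted p 0.843). A change of the binding partner was not detected, while 1 RUNX gene rose and another fell.

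**Figure D1:**
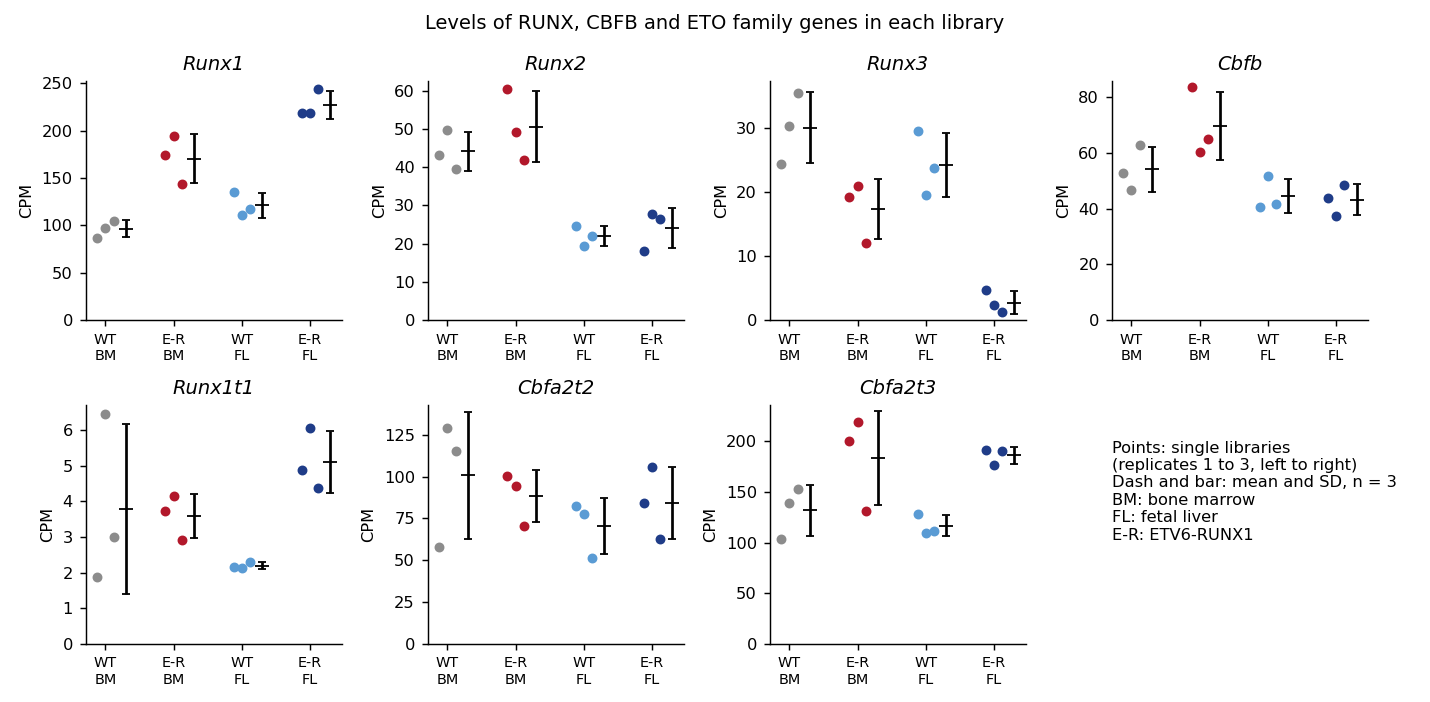
CPM of each of the 7 genes by library, on linear axes from 0, for WT and ETV6-RUNX1 (E-R) bone marrow (BM) and fetal liver (FL), with the mean and SD of 3 libraries beside the points. Runx1 lies higher in ETV6-RUNX1 than in WT in both sources, and Runx3 in ETV6-RUNX1 fetal liver lies at 1.20 to 4.64 CPM, below all other libraries.

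Among the ETO corepressors in fetal liver, Cbfa2t3 (ENSMUSG00000006362, chromosome 8, 122625141 to 122699109, minus strand) had the more abundant RNA of those that were called. Its WT libraries held 128, 109.7 and 111 CPM and its ETV6-RUNX1 libraries 191, 176 and 190.5 CPM. The groups did not overlap, at means of 116 ± 10.3 and 186 ± 8.38 CPM (SD, n = 3). Cbfa2t3 rose by 0.67 ± 0.19 SE (95% confidence interval 0.28 to 1.07, limma adjusted p 0.00934). The call held under 21 of 22 alternatives and was lost when the pseudogene share given above entered as a covariate (0.44, limma adjusted p 0.0886). ETO2 is a brake on erythroid and megakaryocyte genes in TAL1 and GATA1 complexes, and the summed megakaryocyte and erythroid markers given above were higher in the same libraries, Gp9 and Klf1 being the markers that were lower. Their part in the rise was not tested.

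Runx1t1 (ENSMUSG00000006586, chromosome 4, 13743436 to 13893649, plus strand), the ETO gene of the RUNX1-ETO fusion, was the least abundant of the family. It stood at 2.16, 2.12 and 2.31 CPM in WT fetal liver and at 4.90, 6.07 and 4.38 CPM in ETV6-RUNX1 fetal liver, again without overlap. The ratio of the Runx1t1 means was 2.33, and its rise was 0.93 ± 0.28 SE (95% confidence interval 0.33 to 1.52, limma adjusted p 0.0158). This call was less stable, at 18 of 21 alternatives. It was lost when all genes with reads were tested (limma adjusted p 0.0678), with the pseudogene share as a covariate (0.57, limma adjusted p 0.158) and without ETV6-RUNX1 fetal liver replicate 2 (0.82, limma adjusted p 0.0596).

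Cbfa2t2 (ENSMUSG00000038533, chromosome 2, 154436481 to 154539356, plus strand), a corepressor that also acts with PRDM14 in germ cells, showed no call in fetal liver. Its libraries were at 82.2, 77.7 and 51.5 CPM in WT and at 84.0, 106 and 62.7 CPM in ETV6-RUNX1, which overlapped. The difference was 0.25 ± 0.28 SE (95% confidence interval -0.35 to 0.85, limma adjusted p 0.501). Cbfa2t2 varied more within groups than between them, and in 4 of 4 groups its lowest library was the one with the highest share of reads in processed pseudogenes. In 3 of 4 groups its highest library had the lowest share. Such a pattern was not limited to Cbfa2t2. The lowest library had the highest share in 3 of 4 groups for Runx1t1 and Runx3, 2 for Runx1 and Cbfa2t3, 1 for Runx2 and 0 for Cbfb. The highest library had the lowest share in 3 of 4 groups for Runx1t1 and Runx2, 2 for Runx1, Runx3 and Cbfa2t3 and 0 for Cbfb. These counts describe 3 libraries per group, and the part of the share in the Cbfa2t2 differences was not tested beyond the covariate fits. With the share as a covariate the sign of the fetal liver difference turned (-0.36).

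**Figure D2:**
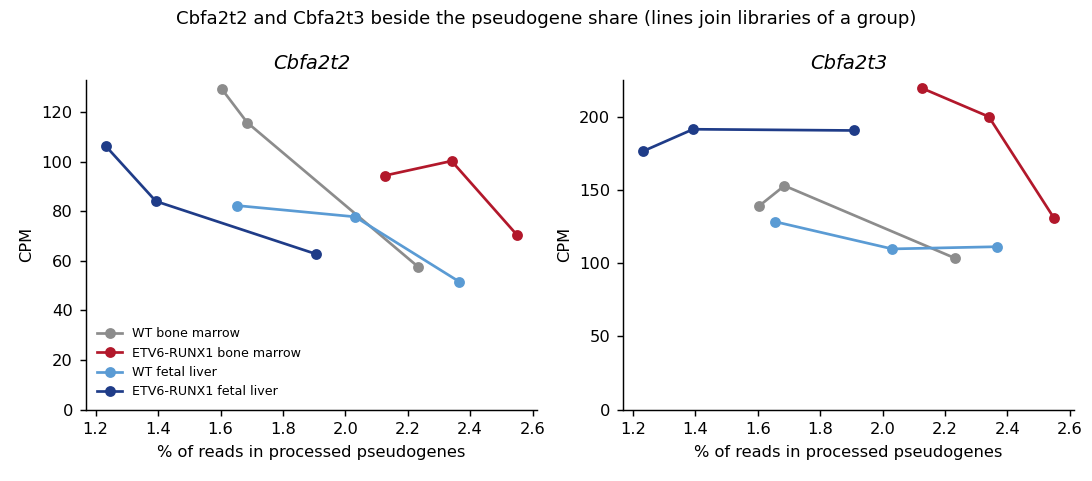
CPM of Cbfa2t2 (left) and Cbfa2t3 (right), on axes from 0, against the percentage of a library's reads in processed pseudogenes, with a line joining the 3 libraries of each group. The lowest Cbfa2t2 library of each group (57.7, 70.6, 51.5 and 62.7 CPM) is the rightmost of its line, whereas for Cbfa2t3 this is so in 2 of 4 groups.

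The comparison of genotypes in bone marrow asked how the fusion changes adult HSCs, and Runx1 was the only 1 of the 7 genes called, against 19.4% of all genes tested (14.4% higher and 4.93% lower). The direction of calls over all genes depended on scaling here: 74.5% of the calls were rises, but 53.0% with median-of-ratios scaling, 48.5% with quantile normalization, 50.5% with edgeR and 52.0% with DESeq2. In fetal liver the corresponding share was 57.6%, and 42.0% with quantile normalization. Runx1 was at 86.7, 97.2 and 105 CPM in WT and at 174, 194 and 143 CPM in ETV6-RUNX1 bone marrow. The groups did not overlap, and the rise of Runx1 was 0.81 ± 0.14 SE (95% confidence interval 0.51 to 1.11, limma adjusted p 0.00178), with a call under all 22 alternatives, 4 other scalings and count models among them.

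Runx3 in bone marrow was lower in every ETV6-RUNX1 library but missed the threshold. It was at 24.4, 30.2 and 35.4 CPM in WT and at 19.2, 20.8 and 12.1 CPM in ETV6-RUNX1, a ratio of means of 0.579. The log2 fold change was -0.77 ± 0.30 SE (95% confidence interval -1.43 to -0.12, limma adjusted p 0.0885). It was called under 4 of 22 alternatives: median-of-ratios scaling (-0.91, limma adjusted p 0.0418), quantile normalization (-1.02, limma adjusted p 0.0269), DESeq2 (-0.93, adjusted p 0.0306) and without ETV6-RUNX1 fetal liver replicate 1 (limma adjusted p 0.0482), a library outside the comparison that enters through the pooled spread. With the pseudogene share as a covariate the difference was -0.32 (limma adjusted p 0.437). Over all alternatives the adjusted p ran from 0.0269 to 0.437. Granulocyte markers were at 152 to 325 CPM in WT and 101 to 126 CPM in ETV6-RUNX1 bone marrow in sum, with Ly6g at or under the floor in both. In WT replicates 1 to 3, Elane was at 17.3, 0.0390 and 0.224 CPM, S100a8 at 49.4, 12.0 and 0.125 CPM and Prtn3 at 228, 196 and 150 CPM. Replicate 1, the highest in each of these genes, had the lowest Runx3 of the WT bone marrow libraries. In WT fetal liver replicates 1 to 3, Mpo was at 119, 19.5 and 63.5 CPM, in the order of Runx3 there. Elane, at no more than 0.346 CPM, had that order too, and Prtn3 the reverse (174, 199 and 191 CPM). These orders describe 3 libraries per group. The part of the granulocyte markers in the lower Runx3 was not tested.

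The other 5 genes had no call in bone marrow. Cbfa2t3 was at 103, 139 and 153 CPM in WT and at 199.9, 219 and 131 CPM in ETV6-RUNX1, with overlap because of ETV6-RUNX1 replicate 3. Its difference was 0.46 ± 0.19 SE (limma adjusted p 0.0967), and it was called without that replicate (0.68, limma adjusted p 0.0117) and with the pseudogene share as a covariate (0.69, limma adjusted p 0.018). Cbfb was at 52.8, 46.7 and 62.9 CPM in WT and at 83.5, 60.5 and 65.0 CPM in ETV6-RUNX1 bone marrow, with an interval of -0.01 to 0.72 around 0.36 ± 0.17 SE (limma adjusted p 0.153). Runx2 was at 43.2, 49.7 and 39.7 CPM in WT and at 60.5, 49.4 and 42.0 CPM in ETV6-RUNX1 bone marrow (0.18 ± 0.19 SE, limma adjusted p 0.527). For the remaining ETO genes WT bone marrow itself was widely spread. Runx1t1 was at 1.89, 6.47 and 2.99 CPM in WT and at 3.73, 4.14 and 2.91 CPM in ETV6-RUNX1 (0.05 ± 0.28 SE, limma adjusted p 0.922). Cbfa2t2 was at 57.7, 129 and 116 CPM in WT and at 100.2, 94.3 and 70.6 CPM in ETV6-RUNX1 (-0.12 ± 0.28 SE, limma adjusted p 0.791). WT bone marrow replicate 1, the library that stood apart, gave the lowest WT value of both genes. Without it the difference of Runx1t1 turned to -0.26 (limma adjusted p 0.536) and that of Cbfa2t2 was -0.48, neither with a call.

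Whether the fusion's effect differed between the sources was tested by the interaction, the change in fetal liver minus the change in bone marrow. Runx3 was the only one of the 7 genes with a called interaction, where 9.19% of all genes were called (5.56% positive and 3.62% negative). Its difference was more negative in fetal liver than in bone marrow, with an interaction of -2.08 ± 0.43 SE (95% confidence interval -3.00 to -1.15, limma adjusted p 0.00864), with a call under all 21 alternatives. For Runx1 the interaction was 0.09 ± 0.20 SE with an interval of -0.33 to 0.51 (limma adjusted p 0.802), so a difference between the rises of Runx1 was not detected, and both signs remain possible. Runx1t1, called in fetal liver alone, had an interaction of 0.88 ± 0.40 SE that did not pass (limma adjusted p 0.174), so its effects were not shown to differ between sources. It passed only without WT bone marrow replicate 1 (1.18, limma adjusted p 0.0366). The same holds for Cbfa2t3 (0.22 ± 0.26 SE, limma adjusted p 0.639), which passed under none of 21 alternatives. The interactions of Runx2 (-0.08 ± 0.27 SE), Cbfb (-0.40 ± 0.24 SE) and Cbfa2t2 (0.37 ± 0.40 SE) had limma adjusted p values of 0.888, 0.298 and 0.588.

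**Figure D3:**
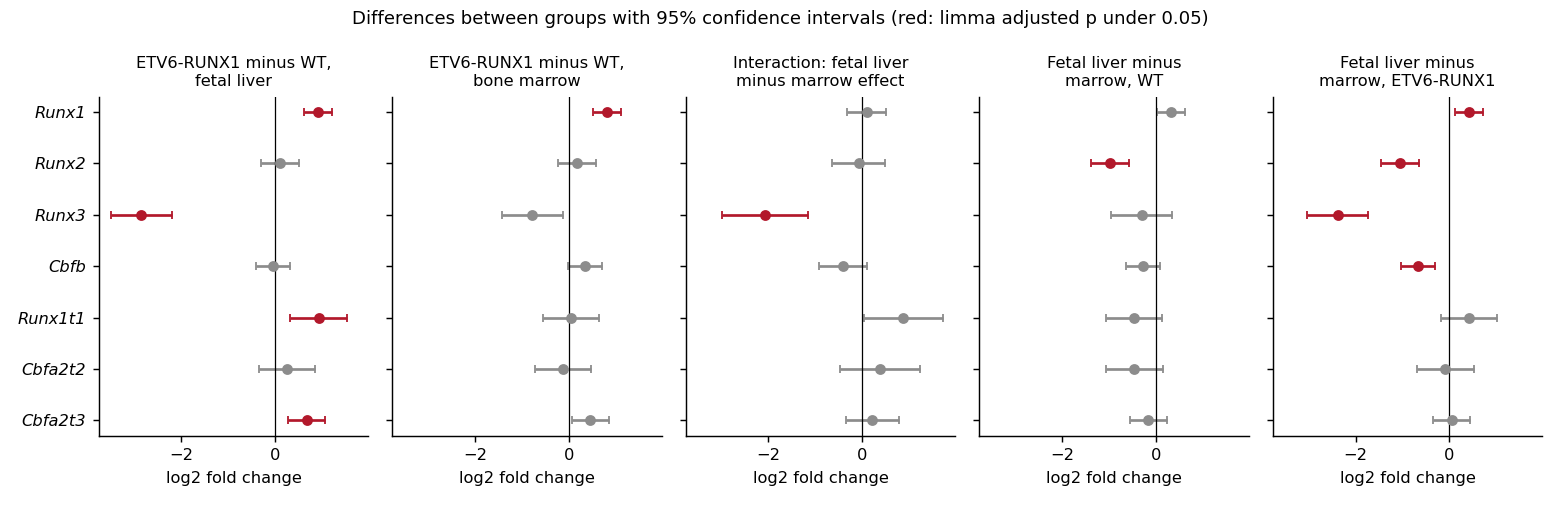
Log2 fold change of each gene in the 5 comparisons (points) with 95% confidence intervals (bars), red where limma's adjusted p is under 0.05. Runx1 is red in both genotype comparisons, and the Runx3 interval of -3.50 to -2.20 in fetal liver lies beyond that in bone marrow, -1.43 to -0.12.

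Fetal liver and bone marrow cells of the same genotype were compared next, to see which of the 7 genes differ by developmental source. In WT cells Runx2 was the only gene called, against 11.1% of all genes (3.38% higher and 7.77% lower in fetal liver). Its WT libraries held 19.5 to 24.7 CPM in fetal liver and 39.7 to 49.7 CPM in bone marrow, without overlap. The Runx2 difference was -0.97 ± 0.19 SE (95% confidence interval -1.37 to -0.57, limma adjusted p 0.00357). In ETV6-RUNX1 cells it was -1.05 ± 0.19 SE (95% confidence interval -1.45 to -0.65, limma adjusted p 0.000901). The ratio of fetal liver to bone marrow was 0.499 in WT and 0.475 in ETV6-RUNX1, and the call held under all 22 alternatives in each genotype. Runx2 thus differed by source and not detectably by genotype, as its genotype intervals above show (-0.30 to 0.51 in fetal liver and -0.22 to 0.58 in bone marrow). The share of calls that were rises over all genes moved from 30.3% to 40.7% with median-of-ratios scaling and to 41.5% with quantile normalization in WT.

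The other differences by source in WT did not pass. Runx1 was above bone marrow in all 3 WT fetal liver libraries (0.33 ± 0.14 SE, limma adjusted p 0.156), and passed with DESeq2 (0.43, adjusted p 0.0276). Cbfa2t2 did not pass (-0.46 ± 0.28 SE, limma adjusted p 0.338) but did without WT bone marrow replicate 1 (-0.81, limma adjusted p 0.0266). The remaining WT differences were -0.30 ± 0.30 SE for Runx3, -0.27 ± 0.17 SE for Cbfb, -0.46 ± 0.28 SE for Runx1t1 and -0.16 ± 0.19 SE for Cbfa2t3, with limma adjusted p values of 0.572, 0.346, 0.325 and 0.624.

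In ETV6-RUNX1 cells 4 of the 7 genes were called between the sources, 1 higher and 3 lower in fetal liver, against 28.6% of all genes (10.4% higher and 18.2% lower). The falls were those of Runx2, Runx3 and Cbfb. Runx3 differed by -2.38 ± 0.30 SE (limma adjusted p 5.32e-05), a ratio of 0.156, under all 22 alternatives. Cbfb differed by -0.67 ± 0.17 SE (95% confidence interval -1.03 to -0.31, limma adjusted p 0.00894), a ratio of 0.620, from 60.5 to 83.5 CPM in bone marrow to 37.3 to 48.4 CPM in fetal liver. Its call was lost only with the pseudogene share as a covariate (-0.51, limma adjusted p 0.135). Runx1 was higher in fetal liver by 0.42 ± 0.14 SE (95% confidence interval 0.12 to 0.72, limma adjusted p 0.0352), but this call held under 14 of 22 alternatives. It was lost without ETV6-RUNX1 bone marrow replicate 1 (limma adjusted p 0.0716) or 3 (0.141), without ETV6-RUNX1 fetal liver replicate 1 (0.0703), 2 (0.0627) or 3 (0.105), with all genes with reads (0.0583), with the replicate number as a block (0.0616) and with the pseudogene share as a covariate (0.376). The median of all genes was -0.16 in this comparison and -0.01 after median-of-ratios scaling, where 57.7% of the calls were rises in place of 36.3%; the shares were 47.3% with quantile normalization, 57.9% with edgeR and 56.0% with DESeq2. The ETO genes did not pass, at 0.41 ± 0.28 SE for Runx1t1, -0.08 ± 0.28 SE for Cbfa2t2 and 0.05 ± 0.19 SE for Cbfa2t3 (limma adjusted p 0.293, 0.853 and 0.855). Cbfa2t2 passed with the pseudogene share as a covariate (-1.09, limma adjusted p 0.0035).

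To compare the genes with one another, CPM was divided by the length of the exons of each gene, merged over its transcripts, which gives CPM per kb. On this scale Cbfa2t3 had the highest mean in each group, from 13.9 ± 1.24 in WT fetal liver to 22.2 ± 1.00 in ETV6-RUNX1 fetal liver (SD, n = 3). In WT fetal liver it was followed by Cbfb (12.8), Runx1 (10.1), Cbfa2t2 (8.15), Runx3 (4.84), Runx2 (2.5) and Runx1t1 (0.276). The libraries of Cbfa2t3 and Cbfb overlapped there, as did those of Runx1 and Cbfa2t2, and the other neighbours in the order were separate. In ETV6-RUNX1 fetal liver Runx1 stood above Cbfb (18.9 against 12.4 CPM per kb) and Runx3 was last at 0.542 CPM per kb, overlapping Runx1t1 at 0.643. The order in WT bone marrow was Cbfa2t3 (15.7), Cbfb (15.6), Cbfa2t2 (11.7), Runx1 (8.01), Runx3 (6.0), Runx2 (5.0) and Runx1t1 (0.475 CPM per kb). There the libraries of Runx1 were separate from those of Runx3, and those of Runx2 from those of Runx1t1, and all other neighbours in the order overlapped. In ETV6-RUNX1 bone marrow the order was Cbfa2t3 (21.9), Cbfb (20.02), Runx1 (14.2), Cbfa2t2 (10.2), Runx2 (5.73), Runx3 (3.47) and Runx1t1 (0.451 CPM per kb), with overlap only of the leading pair. Runx2 ranked above Runx3 there, whereas in WT bone marrow these genes overlapped.

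The make-up of the RUNX family followed from these levels. Runx1 made up 56.5%, 60.1% and 57.5% of the summed RUNX level per kb in WT fetal liver and 85.9%, 83.5% and 86.3% in ETV6-RUNX1 fetal liver. It made up 42.5%, 40.9% and 43.0% in WT bone marrow and 57.5%, 62.4% and 62.4% in ETV6-RUNX1 bone marrow. The groups did not overlap in any of the 4 comparisons, with differences of 27.2 points between genotypes in fetal liver, 18.6 points between genotypes in bone marrow, 15.9 points between sources in WT and 24.5 points between sources in ETV6-RUNX1 (exact two-sided permutation p 0.1 in each, the smallest possible, and 0.182 after Benjamini-Hochberg adjustment over 20 tests). Runx3 held 27.6% ± 2.05 of the RUNX level in WT and 2.51% ± 1.72 in ETV6-RUNX1 fetal liver, and 31.4% ± 3.16 in WT and 14.7% ± 1.79 in ETV6-RUNX1 bone marrow (SD, n = 3), without overlap between genotypes in either source. Runx2 held 14.4% ± 0.309 and 12.3% ± 2.40 in fetal liver and 26.5% ± 3.78 and 24.6% ± 2.84 in bone marrow, in WT and ETV6-RUNX1 respectively, and overlapped between genotypes. The share of Runx1 rests in part on reads that may come from the fusion, for the reason given above.

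**Figure D4:**
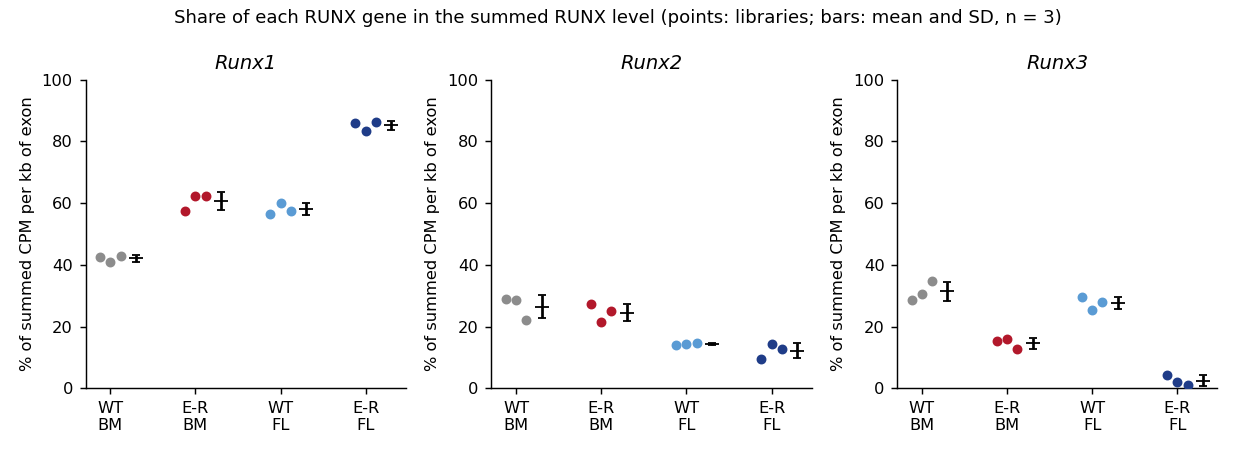
Share of Runx1, Runx2 and Runx3 in their summed CPM per kb of exon, in percent on axes from 0 to 100, by library (points) with the mean and SD of 3 libraries. The Runx1 share is 83.5% to 86.3% in ETV6-RUNX1 fetal liver and 56.5% to 60.1% in WT fetal liver, while the Runx3 share falls to 1.02% to 4.39%.

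Set against the partner, the summed RUNX level per kb was 1.38 ± 0.342 times that of Cbfb in WT and 1.80 ± 0.199 times in ETV6-RUNX1 fetal liver, which overlapped (exact permutation p 0.3, n = 3). In bone marrow the ratio was 1.24 ± 0.203 in WT and 1.19 ± 0.264 in ETV6-RUNX1 (exact permutation p 0.6, n = 3). Between sources the ETV6-RUNX1 libraries were separate, fetal liver above bone marrow (exact permutation p 0.1, adjusted 0.182). Cbfa2t3 held 62.6% ± 4.87 of the summed ETO family level per kb in WT and 68.4% ± 6.36 in ETV6-RUNX1 fetal liver, which overlapped. In bone marrow it held 57.5% ± 6.40 in WT and 66.9% ± 2.49 in ETV6-RUNX1, without overlap (exact permutation p 0.1, adjusted 0.182, n = 3).

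Genes around the family were followed through lists of RUNX cofactors and modifiers (33 genes), of transcription factors that work with RUNX1 or ETO2 (22 genes) and of RUNX target genes (32 genes). Of the 33 cofactors 32 were in the table, and Prmt1 was not analysed here. The counts below cover genes that passed the filter on low values, which asks for 1 CPM in at least 3 libraries, so the counts describe and do not support. Myl9 and Yap1 passed it only through ETV6-RUNX1 fetal liver and Wwtr1 only through ETV6-RUNX1 bone marrow, so their values in comparisons with that group are given as a description. In fetal liver 16 of 32 cofactors (50%) were called, 10 higher and 6 lower, near the 43.1% of all genes called there (24.8% higher and 18.3% lower). The median log2 fold change was 0.31, where the median of all genes was 0.08. The rises were led by Kmt2a, the MLL histone methyltransferase that binds RUNX1, which went from 48.7 to 122 CPM (1.31 ± 0.16 SE, limma adjusted p 2.54e-05). Next came the acetyltransferase Ep300 (0.86 ± 0.20 SE, limma adjusted p 0.00315) and the Groucho corepressor Tle4 (0.74 ± 0.15 SE, limma adjusted p 0.00145). Crebbp, Kat6a, Wwtr1, Hipk1, Smurf1 and Smurf2 were also higher, and Yap1 was at 0.173 to 0.295 CPM in WT and 1.77 to 2.59 CPM in ETV6-RUNX1. The histone deacetylase genes Hdac1, Hdac2 and Hdac3, whose products ETO proteins recruit, were lower by 0.42, 0.46 and 0.43.

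The largest falls among the cofactors were those of Cdc20, Cdk6 and Skp2. Cdc20, an activator of the anaphase-promoting complex, fell from 84.1 to 45.0 CPM (-0.89 ± 0.15 SE, limma adjusted p 0.000365), Cdk6 from 300.5 to 174 CPM (-0.76 ± 0.26 SE, limma adjusted p 0.031) and the ubiquitin ligase subunit Skp2 from 55.7 to 36.5 CPM (-0.60 ± 0.18 SE, limma adjusted p 0.0165). The call of Cdk6 was lost without WT fetal liver replicate 1 (-0.51, limma adjusted p 0.143) or 2 (-0.79, limma adjusted p 0.0598), without ETV6-RUNX1 fetal liver replicate 2 (-0.57, limma adjusted p 0.135) and with all genes with reads (limma adjusted p 0.112). That of Skp2 was lost without WT fetal liver replicate 2 (-0.51, limma adjusted p 0.0722) and without ETV6-RUNX1 fetal liver replicate 3 (-0.48, limma adjusted p 0.0724).

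Of the transcription factor partners 21 were tested in fetal liver, and 13 (61.9%) were called against 43.1% of all genes, 12 higher and 1 lower (median 0.50), or 9 and 2 with median-of-ratios scaling, quantile normalization or edgeR. Spi1 (PU.1), the myeloid factor, went from 11.6 to 31.9 CPM (1.38 ± 0.27 SE, limma adjusted p 0.000953), Gata1, the erythroid and megakaryocyte factor, from 91.7 to 237 CPM (1.36 ± 0.31 SE, limma adjusted p 0.00308) and Ets1 from 23.4 to 58.6 CPM (1.30 ± 0.23 SE, limma adjusted p 0.000448). Tal1, Lmo2, Fli1, Erg, Elf4, Etv6, Gfi1, Tcf4 and Myb were higher as well, by 0.39 to 1.07. As for Runx1, whether reads of the fusion were counted under Etv6 is not given in the sources used here, so the rise of Etv6 cannot be told apart from such reads. Gfi1b, a repressor that acts beside ETO2, was the gene that fell, from 364 to 189 CPM (-0.88 ± 0.22 SE, limma adjusted p 0.00535). The summed monocyte and erythroid markers given above were higher in the same libraries as Spi1 and Gata1, and their part in these rises was not tested. The 3 endothelial markers, mostly Tek, summed to 24.3 to 42.2 CPM in WT and 98.3 to 146 CPM in ETV6-RUNX1 fetal liver. Kdr among them overlapped (5.54 to 7.96 CPM in WT and 3.36 to 8.82 CPM in ETV6-RUNX1), and the part of these markers was not tested either.

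Among the RUNX target genes 21 of 32 were tested in fetal liver and 15 (71.4%) were called against 43.1% of all genes, 13 higher and 2 lower (median 0.92). The largest values were those of Myl9 and Alox12. Myl9, a myosin light chain gene, was at 0.303, 0.0837 and 0.744 CPM in WT and at 61.2, 87.3 and 60.9 CPM in ETV6-RUNX1 fetal liver, given without a test because it passed the filter only through the latter. Alox12, platelet 12-lipoxygenase, was at 24.0, 21.2 and 30.1 CPM in WT and at 894, 1169.7 and 1125 CPM in ETV6-RUNX1 fetal liver (5.36 ± 0.47 SE, limma adjusted p 9.56e-07). Csf1r, the receptor for the macrophage growth factor, went from 0.824 to 10.02 CPM (2.59 ± 0.27 SE, limma adjusted p 4.42e-06). Differences of other platelet genes on the list were smaller, at 1.06 ± 0.37 SE for Itga2b (limma adjusted p 0.0316) and 0.99 ± 0.52 SE for Pf4 (limma adjusted p 0.143, not called). Csf2, Nfe2, Prkcq, Zbtb7b, Cd34, Anpep, Hmga2 and Epor were among the other genes that rose. The falls were those of the granule genes Mpo, from 67.4 to 10.1 CPM (-2.31 ± 0.56 SE, limma adjusted p 0.00457), and Gzmb. The summed megakaryocyte markers (Gp9 excepted), monocyte markers and erythroid markers (Klf1 excepted) given above were higher in the same libraries, and the granulocyte markers lower. Pf4 and Itga2b of the megakaryocyte markers, Csf1r of the monocyte markers, Epor of the erythroid markers and Mpo and Elane of the granulocyte markers are on the target list itself, and the part of these cell types was not tested.

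In bone marrow the lists held fewer calls, read against 19.4% of all genes and a median over all genes of 0.13. Of 32 cofactors 10 (31.2%) were called, 8 higher and 2 lower (median 0.34), a split that became 5 and 4 with median-of-ratios scaling, 4 and 4 with edgeR, 6 and 3 with quantile normalization and 7 and 4 with DESeq2. The Groucho gene Tle2 went from 7.03 to 20.1 CPM (1.36 ± 0.32 SE, limma adjusted p 0.01). Stub1, a ubiquitin ligase for RUNX1, went from 29.4 to 58.6 CPM (1.14 ± 0.36 SE, limma adjusted p 0.037), and Tle5, of the Groucho family too, from 38.7 to 74.6 CPM (0.93 ± 0.16 SE, limma adjusted p 0.00158). Hdac1 fell from 355 to 237 CPM (-0.58 ± 0.12 SE, limma adjusted p 0.00607) and Skp2 from 60.7 to 38.4 CPM (-0.65 ± 0.18 SE, limma adjusted p 0.0248). The call of Stub1 was lost without WT bone marrow replicate 1, where Stub1 was at 11.2 CPM (0.58, limma adjusted p 0.081), and without ETV6-RUNX1 bone marrow replicate 1 (1.12, limma adjusted p 0.0902) or 2 (1.04, limma adjusted p 0.121). Tle2 lost its call without ETV6-RUNX1 bone marrow replicate 2 (1.09, limma adjusted p 0.0512), and Skp2 without that library (-0.50, limma adjusted p 0.110) or WT bone marrow replicate 2 (-0.63, limma adjusted p 0.0642) or 3 (-0.53, limma adjusted p 0.0886).

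Of the 21 partners tested in bone marrow 7 (33.3%) were called, 6 higher and 1 lower (median 0.33), or 3 and 1 with median-of-ratios scaling. Spi1 went from 8.70 to 25.4 CPM (1.37 ± 0.27 SE, limma adjusted p 0.00386), the bridging protein gene Lmo2 from 184 to 331 CPM (0.83 ± 0.15 SE, limma adjusted p 0.00204) and the E protein gene Tcf3 from 17.1 to 30.4 CPM (0.79 ± 0.22 SE, limma adjusted p 0.0234). Gata1 fell from 36.3 to 16.5 CPM (-1.26 ± 0.31 SE, limma adjusted p 0.0133), the opposite of its direction in fetal liver. The summed monocyte markers were at 35.6 to 58.0 CPM in WT and 83.6 to 109 CPM in ETV6-RUNX1 bone marrow, beside Spi1, and the megakaryocyte markers at 1361 to 1813 and 464 to 2080 CPM, beside Gata1, and their part was not tested. Tcf3 lost its call under 8 of 22 alternatives, quantile normalization among them (0.56, limma adjusted p 0.122), and without WT bone marrow replicate 2 (0.68, limma adjusted p 0.082) or ETV6-RUNX1 bone marrow replicate 1 (0.83, limma adjusted p 0.0505) or 3 (0.69, limma adjusted p 0.0652). Gata1 lost its call without ETV6-RUNX1 bone marrow replicate 1 (-1.13, limma adjusted p 0.0507) and with all genes with reads (limma adjusted p 0.061), the 6 bone marrow libraries alone (0.0587) or the pseudogene share as a covariate (0.0596).

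Of the 21 target genes tested in bone marrow 7 (33.3%) were called, 6 higher and 1 lower (median 0.27), or 4 and 2 with edgeR. Alox12 went from 3.64 to 38.7 CPM (2.59 ± 0.47 SE, limma adjusted p 0.00259), with 15.1, 87.0 and 14.05 CPM in the ETV6-RUNX1 libraries. The highest was replicate 2, the library that stood apart in megakaryocyte markers, and without it the rise of Alox12 was 1.76, still with a call. Zbtb7b, a T cell factor that RUNX proteins silence, went from 1.69 to 5.4 CPM (1.23 ± 0.20 SE, limma adjusted p 0.00142). Gzmb, the granzyme B gene, fell from 22.8 to 3.18 CPM (-2.68 ± 0.45 SE, limma adjusted p 0.00155), although not with DESeq2 (adjusted p 0.165). The cell cycle inhibitor gene Cdkn1a went from 53.4 to 120.0 CPM (1.12 ± 0.35 SE, limma adjusted p 0.0392), a call lost under 10 of 22 alternatives, including the fits without WT bone marrow replicate 1 (limma adjusted p 0.0542), 2 (0.118) or 3 (0.065) and without ETV6-RUNX1 bone marrow replicate 1 (0.0581) or 2 (0.161). Myl9 was at 0.0270, 1.85 and 0 CPM in ETV6-RUNX1 bone marrow, so the level seen in fetal liver was not reached there.

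The interaction was called for 3 of 32 cofactors (Yap1, Cdc20 at -0.97 and Tle5 at -0.98), 2 of 21 partners (Gata1 at 2.62 and Ets1 at 1.37) and 4 of 21 target genes (Myl9, Alox12 at 2.76, Csf1r at 2.26 and Epor at 1.29), against the 9.19% of all genes given above. Yap1 and Myl9 passed the filter only through ETV6-RUNX1 fetal liver, so their calls carry no weight here. For Gata1 the fetal liver libraries lay between 75.1 and 102 CPM in WT and between 209.7 and 278 CPM with the fusion. Its bone marrow libraries lay between 31.0 and 43.0 CPM in WT and between 8.39 and 29.1 CPM with the fusion, so the groups did not overlap in either tissue and differed in opposite directions.

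**Figure D5:**
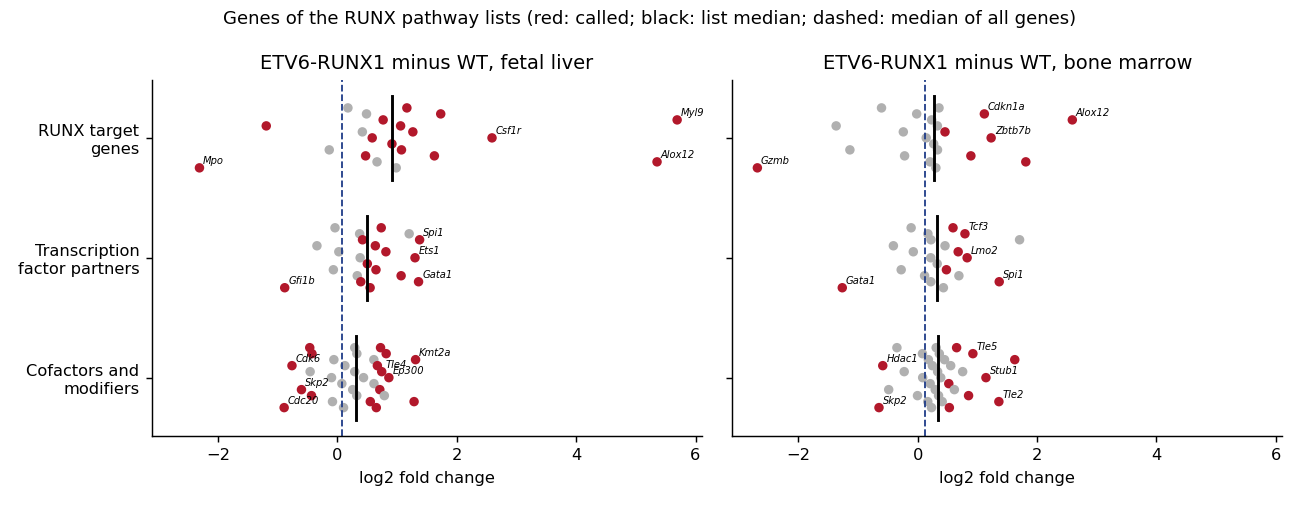
Log2 fold change of each tested gene of the 3 lists (points) in fetal liver and bone marrow, red where limma's adjusted p is under 0.05, with the list median (black bar) and the median of all genes (dashed line, 0.08 and 0.13). Gata1 lies right of the dashed line in fetal liver and left of it in bone marrow, and Myl9 and Alox12 lie farthest to the right in fetal liver.

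The genes whose log2 level was most like that of each gene over the 12 libraries were listed as a description. The libraries share groups, so such likeness follows the group means in part, and with 12 libraries and 9565 genes to choose from a high value is easily reached. Runx1 was most like Tbc1d10b and Abhd16a (Pearson r 0.98 each) and Fam198b (0.98), and Runx2 most like the transporter genes Slc7a4 (0.96) and Slc7a7 (0.95) and the WNT receptor gene Fzd6 (0.96). Runx3 was most like Nol8 (0.97), Ttc27 (0.96) and Suclg2 (0.96). For Cbfb, Gmcl1 (0.95) and Uri1 (0.94) were among the most alike. For the ETO genes these were Hbp1 (0.94), Slc38a9 (0.93) and Dpy19l3 (0.92) for Runx1t1, then Zfp207 (0.98), Sin3a (0.97) and Kit (0.97) for Cbfa2t2, and Wac (0.98), Tet2 (0.97) and Wasl (0.97) for Cbfa2t3. Sin3a encodes the scaffold of a corepressor complex, and Kit is among the genes that set WT bone marrow replicate 1 apart.

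Several genes lie inside or across the family's genes, and the use of strand in counting is not given in the sources used here, so the values of overlapping genes are uncertain to that extent. Gm26626 lies antisense to Runx1 with 106 shared exon bases and was at 0.0952 to 1.29 CPM, far under Runx1. Runx2os1 shares 519 exon bases with Runx2 and was at 0.504 to 2.07 CPM, and Runx2os2 and Runx2os3, at no more than 1.17 and 0.0928 CPM, share none. Supt3 runs through the Runx2 start on the opposite strand without shared exon bases, at 22.4 to 39.2 CPM, a level close to that of Runx2. Gm16224, antisense within Runx3, was at 0 to 0.609 CPM, and shares no exon base. Gm10612 shares 295 exon bases with Cbfa2t3 and was at 0.0498 to 1.11 CPM, and the pseudogene Gm15899 within Cbfa2t3 was at 0.381 to 2.70 CPM. The small RNA genes n-R5s27, Gm22063 and Gm24629 within Runx2 and Cbfb were at no more than 0.0619 CPM.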

How the data were processed

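RNA was measured in 12 libraries of 4 groups. Per the labels' protocols, RNA came from a Norgen single-cell purification kit, and paired reads from a NovaSeq after stranded library preparation (SMARTer, pico input). The submitters' processing notes name GRCm38, bcl2fastq, STAR 2.5.1a, Subread, featureCounts 1.4.6-p5, Salmon 0.8.2, edgeR and limma, without the role of each. The authors deposited CPM per gene. Of 40757 entries, 276 repeated a gene identifier with identical values and were used once. In all libraries 100% of the values were whole multiples of the value of 1 read (tolerance 0.01), which gave the library totals and whole reads. The authors' values therefore carried no scaling between libraries beyond the total.

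The deposited CPM were analysed as log2(CPM + 1) with limma 3.58.1 (R 4.3.3; lmFit, eBayes with trend, not robust), two-sided, a coefficient per group, 8 residual degrees of freedom and no covariate. A gene was tested if 3 or more of the 12 libraries had 1 CPM or more (14271 genes), with Benjamini-Hochberg adjustment over all of them and a threshold of 0.05. The script was tested on simulated data. As alternatives, the pseudocount was set to 0.1, the filter was dropped (29278 genes with reads) or raised to a mean of 5 CPM, and values were scaled by median of ratios or by quantiles. Further alternatives were a replicate block, edgeR 4.0.16 (TMM, quasi-likelihood) and DESeq2 1.42.0 on the recovered reads, the pseudogene share as a covariate, only the 6 libraries compared, and leaving out each library in turn. Exon lengths, positions and biotypes came from GENCODE M21 (GRCm38), in which 99.65% of the identifiers were found. Sequences came from a RefSeq table of GRCm38.p6.

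The 7 genes, the lists and the tests were chosen with earlier results of these data known. The lists came from textbook knowledge, not from a file. Named from each list were up to 3 largest rises and 3 largest falls among called genes that averaged 5 CPM or more in either group, and for each of the 7 genes the 3 genes with the highest r among autosomal genes with a proper name that averaged 5 CPM or more. The other genes given by name are remaining calls of a list and the overlapping genes. A few genes that these rules would name are not reported here, and they stay in the counts.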

Additional observations from a re-analysis of the deposited data

Results flagged for a closer look

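The effect of the fusion differed between fetal liver and bone marrow, by limma's test of the difference, for the genes named below, Myl9 excepted. Among all genes 9.19% were called in this test. Apart from Runx3, the genes were picked for a large called change between genotypes in these same libraries. That choice favours a called interaction, so the number of such genes carries no weight and is not set against the 9.19%. Runx3 had an interaction of -2.08 ± 0.43 SE (limma adjusted p 0.00864), with 12.1 to 20.8 CPM in ETV6-RUNX1 bone marrow and 1.20 to 4.64 CPM in ETV6-RUNX1 fetal liver, and it passed under all 21 alternatives. Gata1 rose in fetal liver and fell in bone marrow, with an interaction of 2.62 ± 0.44 SE (limma adjusted p 0.00232). The interactions of the platelet lipoxygenase gene Alox12 (2.76 ± 0.67 SE, limma adjusted p 0.0203) and the receptor gene Csf1r (2.26 ± 0.38 SE, limma adjusted p 0.00219) were positive. In bone marrow the Csf1r libraries overlapped between genotypes (0.673 to 0.915 CPM in WT and 0.648 to 1.70 CPM in ETV6-RUNX1). The interaction of Ets1 was positive as well (1.37 ± 0.32 SE, limma adjusted p 0.0177). For Myl9 the value was 5.42, a description only, since the gene passed the filter on low values through ETV6-RUNX1 fetal liver alone. The interactions of Cdc20 (-0.97 ± 0.22 SE, limma adjusted p 0.0129) and Tle5 (-0.98 ± 0.22 SE, limma adjusted p 0.0135) were negative. With the pseudogene share as a covariate those of Gata1 (2.00, limma adjusted p 0.0718), Alox12 (2.26, 0.203), Ets1 (0.85, 0.253), Cdc20 (-0.87, 0.104) and Tle5 (-0.58, 0.201) did not pass. Alox12 also failed without WT fetal liver replicate 2 (2.65, limma adjusted p 0.0529) or ETV6-RUNX1 bone marrow replicate 1 (2.37, 0.0503), and with all genes with reads (0.0979), edgeR (2.03, 0.111) and DESeq2 (2.05, 0.140). It was 3.60, with a call, without ETV6-RUNX1 bone marrow replicate 2. Ets1 failed without WT bone marrow replicate 2 (1.20, limma adjusted p 0.0517) or WT fetal liver replicate 3 (1.24, 0.0511), and with all genes with reads (0.0633).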

How the results depend on the processing

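With 3 libraries per group small differences were not detectable, and Runx1t1 and Runx3 rest on few reads where they are low. The calls of Runx1 in both genotype comparisons, of Runx3 in fetal liver, in the interaction and between ETV6-RUNX1 sources, and of Runx2 between sources held under all alternatives run for them. The number of the 7 genes called in fetal liver went from 4 to 2 with the pseudogene share as a covariate. In bone marrow it went from 1 to 2 with median-of-ratios scaling, quantile normalization, DESeq2 and the pseudogene share, and to between 1 and 2 without single libraries. For the interaction and for WT sources it lay between 1 and 2 without single libraries, and was 2 for WT sources with DESeq2.

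Cofactors called in bone marrow went from 10 to 6 with all genes with reads, 16 with the pseudogene share, 6 with only the 6 libraries and 4 to 13 without single libraries, and for the interaction from 3 to 0 with the pseudogene share (limma; the cause was not tested). Partners called in bone marrow went from 7 to 4 with all genes with reads, median-of-ratios scaling, edgeR or only the 6 libraries, and to between 4 and 9 without single libraries. For the interaction they went from 2 to 1 with all genes with reads, 4 with DESeq2, 0 with the pseudogene share and 1 to 4 without single libraries. Target genes called lay between 4 and 7 in bone marrow and between 3 and 7 for the interaction without single libraries.

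Changes of sign concerned differences that had no call. With the pseudogene share as a covariate these were the interactions of Runx1 (-0.13), Cbfa2t2 (-0.85) and Cbfa2t3 (-0.26), Cbfb (0.052) and Cbfa2t2 (-0.36) in fetal liver, Cbfa2t2 in bone marrow (0.48), and Runx1t1 (-0.17) and Cbfa2t3 (-0.33) between ETV6-RUNX1 sources. Runx1t1 in bone marrow turned with median-of-ratios scaling (-0.058), quantile normalization (-0.22), edgeR (-0.21) and DESeq2 (-0.20). Cbfa2t2 between ETV6-RUNX1 sources turned with median-of-ratios scaling (0.080), edgeR (0.10) and DESeq2 (0.11). Runx2 turned in fetal liver with quantile normalization (-0.14) and in the interaction with DESeq2 (0.0027), and the bone marrow difference in the RUNX to Cbfb ratio without division by length (0.288). Leaving out single libraries gave ranges that crossed 0 for the interactions of Runx1 (-0.026 to 0.19), Runx2 (-0.20 to 0.11) and Cbfa2t3 (-0.0085 to 0.38), for Runx2 (-0.0061 to 0.29) and Cbfb (-0.13 to 0.060) in fetal liver, for Runx1t1 (-0.26 to 0.43) and Cbfa2t2 (-0.48 to 0.095) in bone marrow, and for Cbfa2t2 (-0.26 to 0.11) and Cbfa2t3 (-0.17 to 0.20) between ETV6-RUNX1 sources. They did so too for the RUNX to Cbfb ratio between genotypes in bone marrow (-0.204 to 0.0653) and between WT sources (-0.0159 to 0.325), and for the Cbfa2t3 share between ETV6-RUNX1 sources (-1.59 to 4.75 points).

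Over all genes the bone marrow count of 2763 became 1601 with only the 6 libraries and 1520 without ETV6-RUNX1 bone marrow replicate 2. The interaction count of 1311 became 767 with all genes with reads, 543 with the pseudogene share, 2332 without WT bone marrow replicate 1, and 731 to 847 without WT bone marrow replicate 2, WT fetal liver replicate 2 or 3 or ETV6-RUNX1 fetal liver replicate 1, and 73.8% (median-of-ratios) or 73.5% (edgeR) of its calls were positive in place of 60.6%. The count between WT sources ran from 868 to 2781, the latter without WT bone marrow replicate 1, against 1591. Libraries with the same replicate number did not deviate together (median r -0.0425 over 18 pairs, 7 pairs over 0.1). Of 12 libraries, 0 correlated best with their own number in every other group at once. As a replicate block the number left 5838 calls in fetal liver, 2334 in bone marrow and 1033 for the interaction, and of the calls of the 7 genes it ended that of Runx1 between ETV6-RUNX1 sources (0.42, limma adjusted p 0.0616).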

Other observations

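Between the sources within a genotype, 11.1% of all genes were called in WT and 28.6% in ETV6-RUNX1. In WT 5 of 32 cofactors (15.6%) were called, with Src (1.51), Ptpn11 (1.11) and Tle5 (0.62) higher in fetal liver and Cdk6 (-1.14) and Kmt2a (-0.77) lower on the log2(CPM + 1) scale, by limma. Src and Ptpn11 encode a kinase and a phosphatase that act on RUNX1. In ETV6-RUNX1 cells 8 of 32 (25%) were called, 4 in each direction, among them Src (1.37), Ptpn11 (1.26) and Tle4 (0.69) higher and Cdk6 (-1.68) and Cdc20 (-0.70) lower. Both cofactor shares lie near those of all genes, and Yap1 and Wwtr1, counted here, passed the filter only through the group in which they were high. Of 21 target genes 5 (23.8%) were called in WT and 11 (52.4%) in ETV6-RUNX1. In ETV6-RUNX1, 10 target genes were higher in fetal liver, where 10.4% of all genes were higher and 18.2% lower. Alox12 (5.25), Pf4 (3.80), Mpo (2.99) and Hmga2 (2.40) were among those higher, and Gzmb (-1.43) was the gene that was lower. Myl9, one of the 21, passed the filter only through ETV6-RUNX1 fetal liver, so these counts describe and do not support. Of 21 partners 4 (19.0%) were called in WT and 10 (47.6%) in ETV6-RUNX1, with the largest difference that of Gata1 (1.32 and 3.94). These comparisons share libraries with those of the genotypes, and the named genes were chosen after their values were seen.

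The RUNX motif TGTGGT on either strand was present in a start window of 9 of 25 target genes with a window (36%), 6 of 28 cofactors (21.4%) and 0 of 17 partners, where 18.9% of all genes with a window held it. These are counts of letters in short windows, and no test was made of them.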
